A study of Mus musculus with 10 samples.

Results

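Immune checkpoint genes and costimulators were examined in the RPE/choroid complex, the pigmented cell sheet under the retina together with its underlying blood supply, of mice built to lose fat cells. The set held 10 genes of the 55487 in the count table, taken by symbol: the ligands Cd274, Pdcd1lg2, Cd80 and Cd86, the costimulatory receptor Cd40, and the inhibitory receptors Pdcd1, Ctla4, Lag3, Havcr2 and Tigit. The set was chosen by gene name with counts and fold changes of ADQ against control already known, so its levels, fold changes and calls in that comparison are a description and no independent evidence. Bulk messenger RNA was sequenced from 5 ADQ and 5 control samples. The mice of both groups were iDTR animals and carry the allele Gt(ROSA)26Sortm1(HBEGF)Awai/J on C57BL/6, a diphtheria toxin receptor that Cre recombinase switches on, and all 10 samples came from animals given diphtheria toxin by intraperitoneal injection. The ADQ mice also carried Adiponectin-Cre, whose promoter is active in fat cells of the whole body, while the labels of the control mice name no Cre. For mice with Cre the submitters state 7 weeks of toxin, injected every day; the sources used here give neither the controls' duration nor any age.

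A T cell acts on a peptide shown by an antigen-presenting cell only if further surface signals allow it. CD80 and CD86 on the presenting cell bind CD28 on the T cell, which activates it, or CTLA-4, which restrains it; CD40 on the presenting cell is switched on by CD40 ligand of helper T cells and raises CD80 and CD86. PD-L1 (Cd274) and PD-L2 (Pdcd1lg2) bind PD-1 (Pdcd1) and dampen T cells, and PD-L1 is also made by non-immune cells exposed to interferon gamma, including pigment epithelium in culture. LAG-3, TIM-3 (Havcr2) and TIGIT are further inhibitory receptors of T and NK cells, and TIM-3 is also found on microglia, macrophages and dendritic cells.

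The neighbouring genes of the PD-1 ligands are shown first, because both stood apart between the groups in every library. Cd274 and Pdcd1lg2 lie on the same strand of chromosome 19, 22.8 kb apart with 0 protein-coding genes between them. Below are the 250 bases before each RefSeq start site (GRCm38.p6, plus strand, chr19:29367188-29367437 and chr19:29410669-29410918), with matches to the searched motifs in capitals.
Cd274: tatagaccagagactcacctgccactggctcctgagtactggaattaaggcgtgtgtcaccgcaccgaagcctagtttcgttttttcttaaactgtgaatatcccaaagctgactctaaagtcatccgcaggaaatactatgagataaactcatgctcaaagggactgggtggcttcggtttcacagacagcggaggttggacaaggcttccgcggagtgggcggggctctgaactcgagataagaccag
Pdcd1lg2: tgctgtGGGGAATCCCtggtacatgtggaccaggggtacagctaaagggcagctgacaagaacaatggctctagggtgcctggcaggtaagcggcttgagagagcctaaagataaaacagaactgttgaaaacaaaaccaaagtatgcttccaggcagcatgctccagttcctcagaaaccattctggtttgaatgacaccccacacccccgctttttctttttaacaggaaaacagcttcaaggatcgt
The search covered 250 bases before to 50 after the start of 7 of the 10 genes (Cd274, Pdcd1lg2, Cd80, Pdcd1, Ctla4, Havcr2 and Tigit). The motifs, searched on both strands, were the gamma-activated site TTCNNNGAA, the interferon-stimulated response element GAAANNGAAA and the NF-kB site. They occur in 8.3%, 3.44% and 8.46% of all 32851 promoter windows of this length. The only match among the 7 genes was 1 NF-kB site in the Pdcd1lg2 window, GGGGAATCCC, whose first base lies at position -244 counted from the start. No match says only that these letters are not in the window.

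Libraries held 43591245 to 64087660 counts, and markers of the labelled tissue were high in all of them (6 pigment epithelium genes summed to 25721 to 38565 CPM in ADQ and 29914 to 43659 CPM in control; CPM, counts scaled to a common library size with TMM factors). Control 5 stood apart from the other controls: its 10 T cell markers summed to 80.0 CPM against 25.0 to 37.2 CPM in controls 1 to 4, and its 4 NK cell markers to 34.4 CPM against 5.09 to 10.7 CPM. Adipoq, the fat cell gene whose promoter drives the Cre, was at 0.176 to 1.66 CPM in ADQ, at 4.05 to 7.93 CPM in controls 1 to 4 and at 0 in control 5, where 0 counts allow up to 0.0623 CPM. The 6 adipocyte markers summed to 7.33 to 24.6 CPM in ADQ, to 65.6 to 154 CPM in controls 1 to 4 and to 6.41 CPM in control 5. These values of control 5 go against its label, although its Adipoq and adipocyte marker levels also lay below those of every ADQ library. Other values lay with those of other controls: its 4 surface epithelium keratins summed to 482 CPM, and its Cd274 and Ptpn6 lay with the controls. The keratins do not mark the group, as control 2, at 0.946 CPM, lay within the ADQ range. Cd274 and Ptpn6 were named with this comparison known, so neither value is support for the label. The label was kept as given, and whether it is right was not tested. Results are therefore also given without control 5 where that changes a call. Where control 5 is the highest control, leaving it out widens the difference by itself, so such values are no support. The 4 surface epithelium keratins summed to 0.356 to 1.2 CPM in ADQ and 0.946 to 1547 CPM in control, and 5 rod markers to 288 to 3259 CPM in ADQ and 286 to 1613 CPM in control. B cell markers summed to 5.05 to 8.83 CPM in ADQ and 3.33 to 9.05 CPM in control, neutrophil markers to 17.9 to 22.3 CPM in ADQ and 12.3 to 21.5 CPM in control, and choroid melanocyte and endothelial markers to 6040 to 8245 CPM in ADQ and 7175 to 9820 CPM in control.

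Of the 10 genes, Cd274, Cd86 and Cd40 rose in ADQ, and none fell. These 3 were among 7 that passed the low-count filter; over all 20684 genes tested, 0.74% were called higher and 0.087% lower (edgeR quasi-likelihood test, Benjamini-Hochberg adjusted p under 0.05). Pdcd1, Lag3, Havcr2 and Cd80 were tested and did not pass, while Pdcd1lg2, Ctla4 and Tigit had too few counts to be tested. Without control 5, Cd274, Cd86, Cd40 and Pdcd1 passed, all higher, where 1.5% of 21048 genes were called higher. In 4 of the 10 genes all 5 ADQ libraries lay above all 5 control libraries, Cd274, Cd86 and Cd40 among those tested and Pdcd1lg2 below the filter; 2.09% of all genes tested showed this. In whole tissue, a change in the number of cells that carry a transcript and a change in transcript per cell cannot be told apart.

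**Figure D1:**
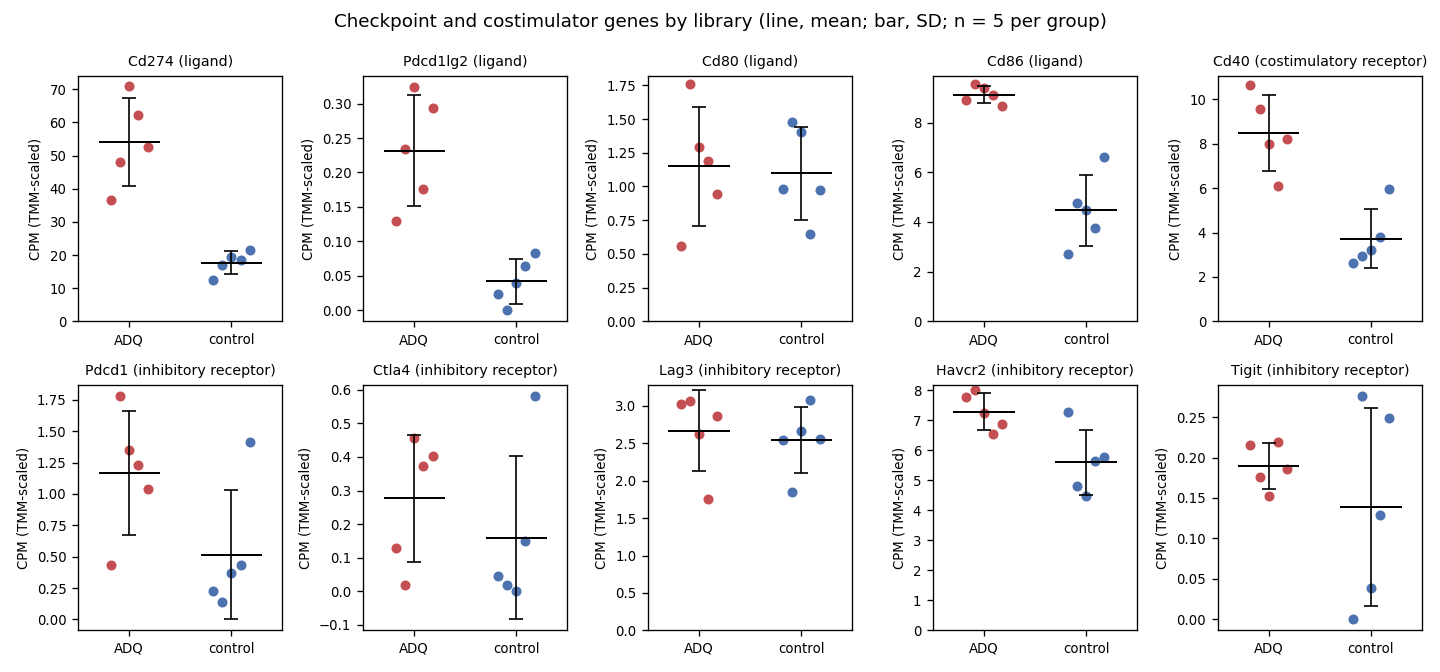
Level of each of the 10 genes in every library, in CPM on separate linear axes, ADQ in red and control in blue, with lines for group means and bars for SD (n = 5 each). The ADQ points lie above all control points for Cd274, Pdcd1lg2, Cd86 and Cd40, and overlap them for the other 6 genes.

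Cd274, which encodes PD-L1, had the largest log2 fold change of the 7 tested genes of the set in the edgeR fit of all libraries; Pdcd1 exceeded it without control 5, with limma voom and in the authors' deposited table. It was at 36.5, 48.1, 71.0, 62.2 and 52.4 CPM in ADQ 1 to 5, against 12.4, 17.0, 19.4, 18.4 and 21.4 CPM in controls 1 to 5. The groups did not overlap, and the lowest ADQ library was well above the highest control, which was control 5. The gene (ENSMUSG00000016496) spans chr19:29367455-29388095 on GRCm38. Its mean was 54.0 ± 13.3 CPM in ADQ and 17.7 ± 3.36 CPM in control (SD, n = 5 each), a 3.05-fold difference (log2 fold change 1.61, SE 0.18, edgeR adjusted p = 0.00136) that ranked 11th by p among all genes tested. The call held without any single library, with an edgeR adjusted p of at most 0.00944, and without control 5 the log2 fold change was 1.68. An antisense gene, AC119228.1, overlaps Cd274 exons and had 240 counts over all libraries, against 14099 counts of Cd274 in ADQ and 4284 in control; whether counting used strand is not given in the sources used here, so reads of the pair cannot be told apart.

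Pdcd1lg2 (ENSMUSG00000016498, chr19:29410919-29471161), the gene of the other PD-1 ligand, was close to the limit of detection. It had 6, 12, 17, 8 and 19 counts in ADQ 1 to 5, against 1, 0, 2, 3 and 4 counts in controls 1 to 5. Every ADQ library held more than every control, in CPM as in counts, but sums of 62 counts in ADQ and 10 in control are too few for the filtered test. The mean level was 0.232 ± 0.0805 CPM in ADQ and 0.0419 ± 0.0329 CPM in control (SD, n = 5 each), and the 0 in control 2 allows up to 0.0592 CPM. With no low-count filter, edgeR gave it a log2 fold change of 2.42 (SE 0.78) and an adjusted p of 0.216. Per kilobase of exon, Cd274 was 96.7 to 192 times as abundant as Pdcd1lg2 in ADQ and 139 to 294 times in the 4 controls with a Pdcd1lg2 count.

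Of the ligands shared by CD28 and CTLA-4, Cd86 rose and Cd80 did not pass; the difference between their changes was not tested. Cd86 was at 8.91, 9.54, 9.41, 9.11 and 8.69 CPM in ADQ 1 to 5, against 2.72, 4.75, 4.5, 3.75 and 6.60 CPM in controls 1 to 5. The ADQ values lay close together and above all controls, of which control 5 was again the highest. The gene (chr16:36603869-36666081 on GRCm38) rose 2.04-fold, to 9.13 ± 0.35 CPM in ADQ, against 4.47 ± 1.43 CPM in control (SD, n = 5 each; log2 fold change 1.03, SE 0.20, edgeR adjusted p = 0.0238). The call was lost without ADQ 2, ADQ 3, ADQ 4, control 2 or control 4, where the edgeR adjusted p was up to 0.0827, and without control 5 the log2 fold change was 1.21 (edgeR adjusted p = 0.00169).

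Cd80 did not differ beyond the spread between libraries. Values were 0.562, 1.76, 1.30, 1.19 and 0.943 CPM in ADQ 1 to 5, against 0.984, 1.48, 1.40, 0.646 and 0.976 CPM in controls 1 to 5. The groups overlapped throughout, and the lowest value of all was in ADQ 1. The log2 fold change was 0.06 (SE 0.33, edgeR adjusted p = 0.946), and 0.02 without control 5. Within a library, Cd86 per kilobase was 16.0, 5.48, 7.35, 7.77 and 9.32 times Cd80 in ADQ 1 to 5, against 2.80, 3.25, 3.25, 5.87 and 6.84 times in controls 1 to 5, a ratio chosen after the values were seen.

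Cd40 (chr2:165055627-165072948), the receptor through which helper T cells activate presenting cells, rose. It was at 10.6, 9.56, 8.0, 6.10 and 8.19 CPM in ADQ 1 to 5, against 2.63, 2.96, 3.23, 3.81 and 5.96 CPM in controls 1 to 5. The groups touched without crossing, as ADQ 4, the lowest of its group, lay just above control 5. Mean levels were 8.5 ± 1.72 CPM in ADQ and 3.72 ± 1.32 CPM in control (SD, n = 5 each), a 2.28-fold difference (log2 fold change 1.19, SE 0.23, edgeR adjusted p = 0.0245). The call was lost without ADQ 1, ADQ 2, ADQ 3, control 1, control 2 or control 4, with an edgeR adjusted p of up to 0.0847, and without control 5 the log2 fold change was 1.43 (edgeR adjusted p = 0.00112).

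Leukocyte markers moved beside these 3 rises. Ptprc, the pan-leukocyte gene for CD45, was at 26.7 to 37.4 CPM in ADQ and 14.7 to 24.5 CPM in control (log2 fold change 0.83, edgeR adjusted p = 0.0139; 0.0553 without control 4). Of 12 macrophage and microglia markers 2 rose and 0 fell (1 rose when any 1 library was left out), with no marker at 0 in any library, and their summed level was 1814 to 2874 CPM in ADQ and 1753 to 2229 CPM in control, ranges that overlap. Of 8 dendritic cell markers 1 rose (0 without ADQ 2 or control 4, 2 without control 2 or control 5), none was at 0, and they summed to 131 to 151 CPM in ADQ and 106 to 130 CPM in control. With all libraries, DESeq2 called 5 of these dendritic cell markers higher, limma voom 3 and edgeR with no low-count filter 4. Over all genes, DESeq2 called 510 of 20684 higher, limma voom 552 of 20684 and unfiltered edgeR 203 of 41319. The filtered edgeR fit called 153 of 20684 higher. The part of dendritic cells in the rises was not tested. With the mean of the macrophage markers as a covariate, the log2 fold changes were 1.78 for Cd274, 0.74 for Cd86 and 0.69 for Cd40, and with the mean of the T cell markers they were 1.46, 0.60 and 0.42. No gene of the whole table passed in either fit. Cd274 had an edgeR adjusted p of 0.057 with the macrophage covariate and 0.21 with the T cell covariate. The summed T cell markers were at 85.1 to 116 CPM in ADQ and at 25.0 to 37.2 CPM in controls 1 to 4. Only control 5, at 80.0 CPM, lay near ADQ. The fit with the T cell covariate thus rests largely on control 5 and can hardly tell group from T cell marker level.

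Among the tested inhibitory receptors, Pdcd1 had the largest log2 fold change in the edgeR fit of all libraries and did not pass. PD-1 is carried by activated T cells. Pdcd1 was at 0.432, 1.78, 1.35, 1.23 and 1.04 CPM in ADQ 1 to 5, against 0.229, 0.138, 0.370, 0.431 and 1.41 CPM in controls 1 to 5. ADQ 1 was as low as control 4, and control 5 was higher than all ADQ libraries but ADQ 2. The log2 fold change was 1.17 (SE 0.55, edgeR adjusted p = 0.368), and without control 5 it was 1.99 (edgeR adjusted p = 0.0487). Leaving out the highest control widens the difference by itself, so that value is no support.

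Ctla4 and Tigit, both receptors of T cells, were near the limit of detection. Ctla4 had 6, 1, 24, 17 and 26 counts in ADQ 1 to 5, against 2, 1, 0, 7 and 28 counts in controls 1 to 5. Its highest count was in control 5, and the groups overlapped fully. Tigit had 10, 9, 8, 10 and 12 counts in ADQ 1 to 5, against 0, 14, 2, 6 and 12 counts in controls 1 to 5. The ADQ libraries were alike, while the controls spread on both sides of them. With no low-count filter neither passed (edgeR adjusted p = 0.754 for Ctla4 and 0.829 for Tigit), and differences were not detectable at this depth.

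T cell marker levels were set beside these receptors. None of the 10 T cell markers passed in the edgeR fit, and none was at 0 in any library. With all libraries, DESeq2 called 4 of them higher and limma voom 9. Over all 20684 genes of these fits, DESeq2 called 510 higher and limma voom 552. Their summed level was 85.1 to 116 CPM in ADQ and 25.0 to 80.0 CPM in control, with a median log2 fold change of 1.74. Cd3e, of the T cell receptor complex, had 1.76 (edgeR adjusted p = 0.235). Without control 5, 9 of the 10 passed in edgeR, with a median of 2.36, and Cd3e had 2.57 (edgeR adjusted p = 0.00196). Over all 21048 genes of that fit, 1.5% were called higher. Control 5 was set apart by these same markers, so the values without it are no support. The 4 NK cell markers, of which Ncr1 was at 0 in some library, summed to 26.7 to 43.0 CPM in ADQ and 5.09 to 34.4 CPM in control (up to 10.7 CPM in controls 1 to 4). None of the NK cell markers passed in edgeR, and 1 did without control 5. With all libraries, DESeq2 called 0 of them and limma voom 2. Set against the summed counts of the 10 T cell markers, Pdcd1 had 0.371, 1.60, 1.56, 1.40 and 1.22 counts per 100 in ADQ 1 to 5, against 0.846, 0.551, 1.32, 1.16 and 1.76 in controls 1 to 5. These ratios, chosen after the values were seen, overlapped between the groups. With the mean of the T cell markers as a covariate, the log2 fold change of Pdcd1 was -0.33 (SE 0.63, edgeR adjusted p = 0.838). That fit rests largely on control 5, the only control with T cell markers near the ADQ level.

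**Figure D2:**
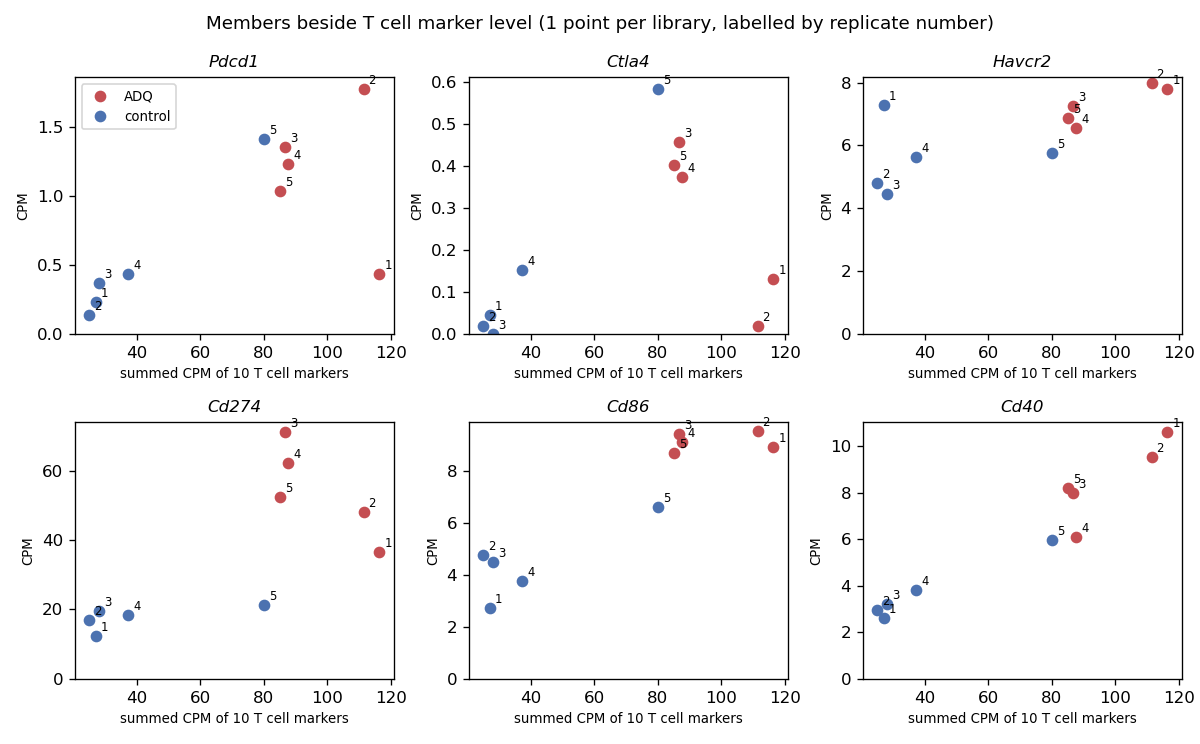
Level of 6 of the genes (CPM, linear axes) against the summed CPM of 10 T cell markers, 1 point per library labelled by its replicate number, ADQ in red and control in blue. Control 5, at 80.0 CPM of T cell markers, lies beside the ADQ libraries for Pdcd1, Ctla4 and Cd40, and at 21.4 CPM of Cd274 it lies with the other controls.

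Havcr2 and Lag3 had the highest levels per length of the inhibitory receptors in both groups. Lag3 was at 3.03, 3.07, 2.63, 1.76 and 2.86 CPM in ADQ 1 to 5, against 2.54, 1.85, 2.67, 3.08 and 2.55 CPM in controls 1 to 5. The lowest value was in ADQ 4 and the highest in control 4, and the log2 fold change was 0.07 (SE 0.21, edgeR adjusted p = 0.898; 0.07 without control 5). Havcr2 was at 7.78, 7.99, 7.24, 6.54 and 6.88 CPM in ADQ 1 to 5, against 7.28, 4.81, 4.46, 5.64 and 5.77 CPM in controls 1 to 5. Here 4 controls lay below all ADQ libraries and control 1 lay among them. The mean was 7.29 ± 0.606 CPM in ADQ and 5.59 ± 1.09 CPM in control (SD, n = 5 each), with a log2 fold change of 0.38 (SE 0.15, edgeR adjusted p = 0.298; 0.39 without control 5), which did not pass.

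Levels could be compared between genes only per length, as CPM per kilobase of exon in GENCODE M21. Cd274 was the most abundant of the set in both groups, at 14.9 ± 3.66 CPM per kilobase in ADQ and 4.89 ± 0.929 in control (SD, n = 5 each). The order over all 10 libraries was Cd274, Havcr2, Cd86, Cd40, Lag3, Pdcd1, Cd80, Tigit, Ctla4 and Pdcd1lg2, but it pools groups that differ: Lag3 ranked 5 in ADQ and 3 in control, and Pdcd1 stood above Cd80 in 5 of 5 ADQ libraries and in 2 of 5 control libraries. Neighbours in this order were compared by an exact two-sided sign-flip permutation test of the log2 ratio within libraries, adjusted over the 9 pairs. The pairs and their direction were taken from these same libraries, so the test is no independent evidence of the order. Of these pairs, 4 passed, and 2 of the 4 did so under every alternative length, scaling and prior count tried: Cd274 over Havcr2 and Lag3 over Pdcd1 (exact permutation adjusted p = 0.00879 each). Cd274 exceeded Havcr2 in 10 of 10 libraries, by 2.44 log2 units on average in ADQ and 1.24 in control. Havcr2 exceeded Cd86 by 0.10 log2 units in ADQ and 0.79 in control (exact permutation adjusted p = 0.00879), but with the longest transcript as length the mean ratio turned to -0.08 (exact permutation adjusted p = 0.837). The remaining pair, Tigit over Ctla4, rests on few counts, unlike gene lengths and the prior count: in control 1, with 0 counts of Tigit and 2 of Ctla4, the prior count divided by length put Tigit higher, and with a prior count of 0.5 the pair did not pass (exact permutation adjusted p = 0.0809). No order is read from it. Cd86 and Cd40 did not differ beyond their spread (mean log2 ratio 0.09, SD 0.29, exact permutation adjusted p = 0.465), nor did Cd40 and Lag3, Pdcd1 and Cd80, Cd80 and Tigit, or Ctla4 and Pdcd1lg2. With the longest transcript as length, however, Cd86 exceeded Cd40 by 0.43 log2 units (exact permutation adjusted p = 0.0117). Cd80 exceeded Tigit with that length (exact permutation adjusted p = 0.0422) and without ADQ 1 (exact permutation adjusted p = 0.0352).

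**Figure D3:**
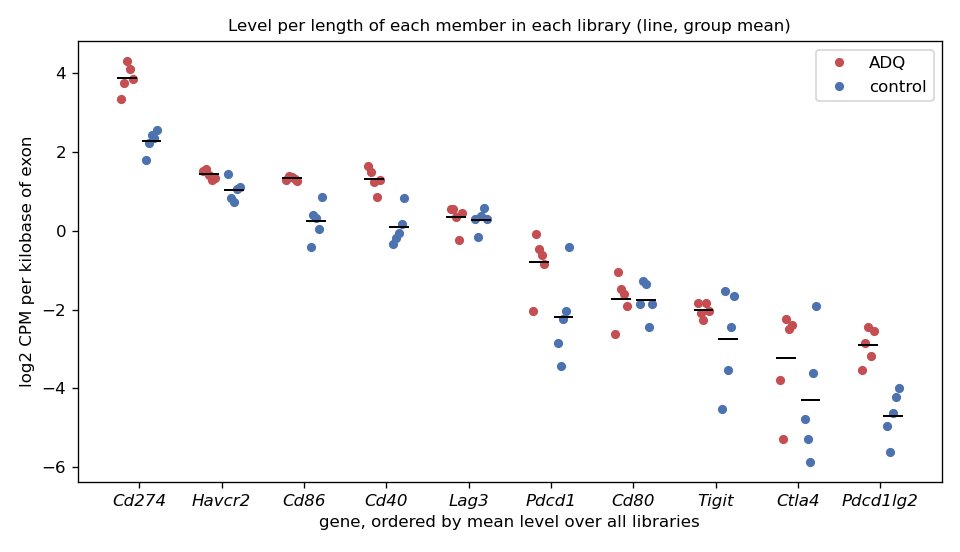
Level per length (log2 CPM per kilobase of exon, prior count 2) of the 10 genes in each library, ordered by the mean over all libraries; ADQ in red, control in blue, lines for group means. Cd274 stands apart at the top, and Tigit, Ctla4 and Pdcd1lg2 lie at the bottom, where single counts move the points.

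Other genes of these pathways were taken from a list of 55 by function, of which 49 passed the filter. Of these, 4 rose, Ptpn6, Cd226 and Irf1 among them, 0 fell and 45 did not pass. Over all 20684 genes tested, 0.74% were called higher and 0.087% lower. A log2 fold change above 0 was found for 39 of the 49, against 10724 of all 20684 genes. The median of the 49 was 0.30, against 0.01 over all genes tested. Without control 5 there were 11 rises and 0 falls, including the same 4, where 1.5% of 21048 genes were called higher.

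Ptpn6 encodes SHP-1, a phosphatase recruited by inhibitory receptors in blood cells. It was at 87.8, 91.3, 73.5, 80.6 and 77.8 CPM in ADQ 1 to 5, against 48.9, 50.1, 50.04, 54.1 and 52.1 CPM in controls 1 to 5. The groups were far apart and control 5 lay with its group; the rise was 1.61-fold (log2 fold change 0.69, SE 0.08, edgeR adjusted p = 0.00136) and held without any single library. Cmtm6, whose protein keeps PD-L1 at the cell surface, was at 79.4 ± 17.9 CPM in ADQ and 59.1 ± 15.2 CPM in control (SD, n = 5 each; edgeR adjusted p = 0.336), and its relative Cmtm4 had a log2 fold change of -0.25 (edgeR adjusted p = 0.334). Of 5 genes of the PD-1 axis, 1 rose.

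CD226 is the activating receptor that shares its ligands with TIGIT. Cd226 was at 1.53, 2.03, 1.62, 1.78 and 1.89 CPM in ADQ 1 to 5, against 0.275, 0.454, 0.526, 0.366 and 0.976 CPM in controls 1 to 5. All ADQ values were above all control values, with a 3.39-fold difference (log2 fold change 1.76, SE 0.32, edgeR adjusted p = 0.0194), although the call was lost without ADQ 2, ADQ 4, control 2 or control 4, where the edgeR adjusted p was up to 0.0688. It was the single rise among 9 tested genes of the LAG-3, TIM-3 and TIGIT axes. Cd96, a further receptor of this family, was at 2.66 ± 0.715 CPM in ADQ and 0.531 ± 0.638 CPM in control (edgeR adjusted p = 0.153), with control 5 at 1.64 CPM. Without control 5 it had a log2 fold change of 3.39 (edgeR adjusted p = 0.00196). With all libraries Cd96 passed in DESeq2 (adjusted p = 0.00444) and limma voom (adjusted p = 0.00546). Ceacam1, a reported TIM-3 ligand, had a log2 fold change of -0.96 (edgeR adjusted p = 0.357), and control 3, which also held the most surface epithelium keratin, stood at 83.5 CPM against 18.3 to 31.7 CPM in the other controls.

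Of the 5 tested partners in the CD28 and CTLA-4 axis none passed. Cd28, the activating receptor for CD80 and CD86, was at 1.81 ± 0.699 CPM in ADQ and 0.701 ± 0.425 CPM in control (SD, n = 5 each; log2 fold change 1.37, edgeR adjusted p = 0.173). It passed without control 5 (1.79, edgeR adjusted p = 0.0424) and with DESeq2 (adjusted p = 0.0426) and limma voom (adjusted p = 0.0478). Icos, its inducible relative, was at 1.92 ± 0.73 CPM in ADQ and 0.79 ± 0.70 CPM in control (edgeR adjusted p = 0.329). Both lie on chromosome 1 beside Ctla4, 114 kb and 62.1 kb away. None of the 3 BTLA axis genes passed in the edgeR fit. Tnfrsf14, which encodes the ligand of BTLA, had a log2 fold change of 1.26 (edgeR adjusted p = 0.143) and Btla 0.98 (edgeR adjusted p = 0.304). With DESeq2 (adjusted p = 0.0209) and limma voom (adjusted p = 0.0192) Tnfrsf14 passed.

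Of 10 genes of the CD40 axis, the ligand gene Cd40lg and 9 signalling genes, none passed, and 8 had a log2 fold change above 0. Birc3, an inhibitor of apoptosis bound to TRAF proteins, was at 15.9 ± 1.45 CPM in ADQ and 11.5 ± 0.777 CPM in control (SD, n = 5 each; log2 fold change 0.46, edgeR adjusted p = 0.0544). Traf1, an adaptor of TNF family receptors, was at 13.9 ± 1.41 CPM in ADQ and 9.67 ± 1.56 CPM in control (log2 fold change 0.53, edgeR adjusted p = 0.0818). In both genes all ADQ libraries lay above all controls, and without control 5 both passed (edgeR adjusted p = 0.0385 for Birc3 and 0.019 for Traf1). With all libraries both passed in DESeq2 (adjusted p = 0.00108 for Birc3 and 0.00599 for Traf1) and limma voom (adjusted p = 0.00991 and 0.0192). Cd40lg, made by helper T cells, was named here after its values were seen. It was at 1.12 to 1.64 CPM in ADQ and 0 to 1.37 CPM in control (log2 fold change 2.03, edgeR adjusted p = 0.353). Without control 5 it had a log2 fold change of 4.25 (edgeR adjusted p = 8.1e-04). With all libraries Cd40lg passed in limma voom and not in DESeq2. Among 5 tested TNF family costimulators none passed in the edgeR fit. Tnfrsf18 (GITR) had a log2 fold change of 0.95 (edgeR adjusted p = 0.203), and without control 5 it had 1.26 (edgeR adjusted p = 0.0472). With all libraries it passed in limma voom (adjusted p = 0.0452) and not in DESeq2 (adjusted p = 0.0739). Tnfrsf9 (4-1BB) had a log2 fold change of 0.95 (edgeR adjusted p = 0.273). Of the CD200 and CD47 axes, which restrain phagocytes, none of 5 passed; Sirpa was at 178 ± 12.8 CPM in ADQ and 144 ± 20.5 CPM in control (edgeR adjusted p = 0.223), and Cd47 had a log2 fold change of 0.21 (edgeR adjusted p = 0.282).

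Of the interferon gamma input to Cd274, Irf1, a transcription factor induced by this cytokine, rose. It was at 116, 117, 110, 118 and 109 CPM in ADQ 1 to 5, against 42.1, 44.96, 52.9, 62.3 and 72.7 CPM in controls 1 to 5. No library crossed between the groups, and control 5 was the highest of its group. The mean was 114 ± 4.10 CPM in ADQ and 54.99 ± 12.6 CPM in control (SD, n = 5 each), a 2.07-fold rise (log2 fold change 1.05, SE 0.13, edgeR adjusted p = 0.00195) that held without any single library. Ifng itself was at 0.615 to 1.04 CPM in ADQ and 0 to 0.436 CPM in control, without overlap, and did not pass (log2 fold change 2.55, edgeR adjusted p = 0.192), but passed without control 5 (3.65, edgeR adjusted p = 0.0469). With all libraries Ifng passed in limma voom (adjusted p = 0.0124) and not in DESeq2 (adjusted p = 0.0507). Jak2, a kinase of its receptor, did not pass (log2 fold change 0.31, edgeR adjusted p = 0.287).

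**Figure D4:**
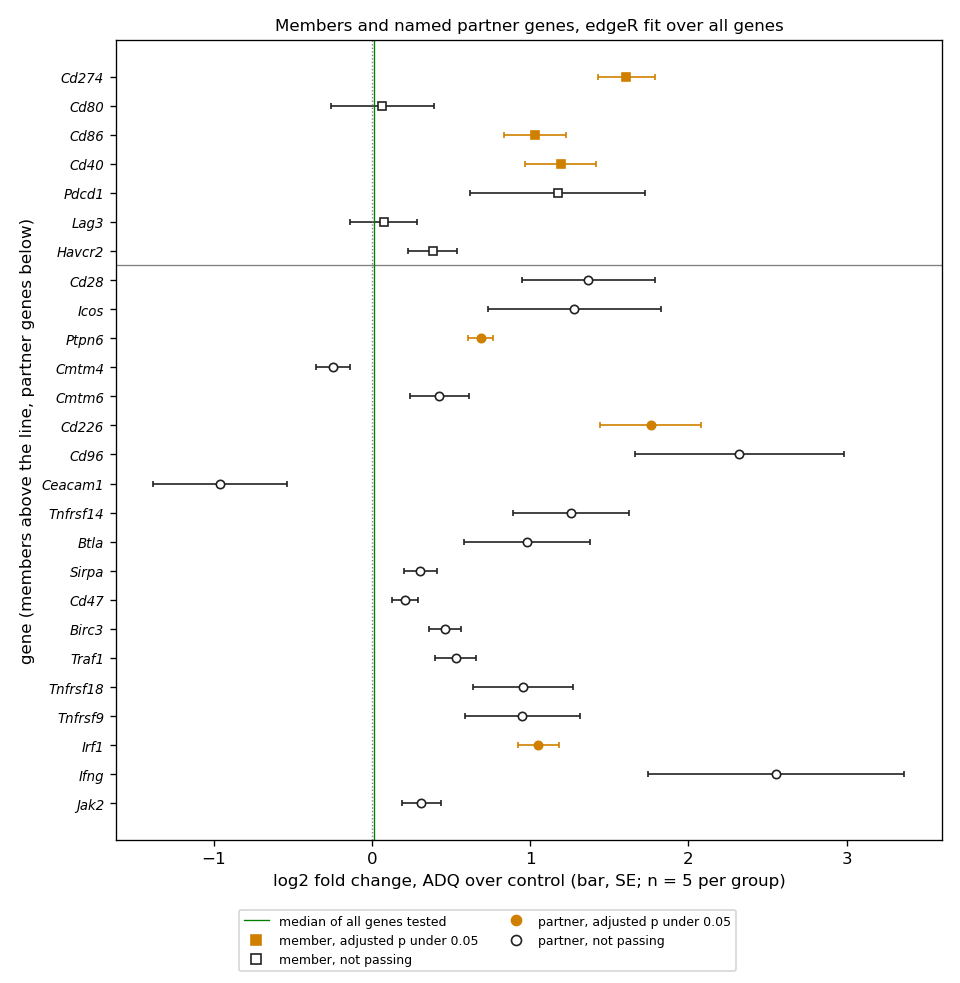
Log2 fold change of ADQ over control with its SE (n = 5 each) for the 7 tested genes of the set, above the grey line, and the named partner genes below it, filled orange where the gene passed over all genes tested and with a green line at the median of all genes, 0.01. Ceacam1 and Cmtm4 are the 2 named genes below 0, and neither passed.

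The authors' deposited table, made with their own settings, lists 7 of the 10 genes. Of these, 4 in the authors' deposited table had an adjusted p under 0.05, all higher in ADQ, where 3.79% of its 15860 genes were called higher. These were Cd274 (log2 fold change 1.69), Cd86 (1.10), Cd40 (1.18) and Pdcd1 (2.00, adjusted p = 0.0361) in the authors' deposited table. Pdcd1 is called there and not in the edgeR fit.

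**Figure D5:**
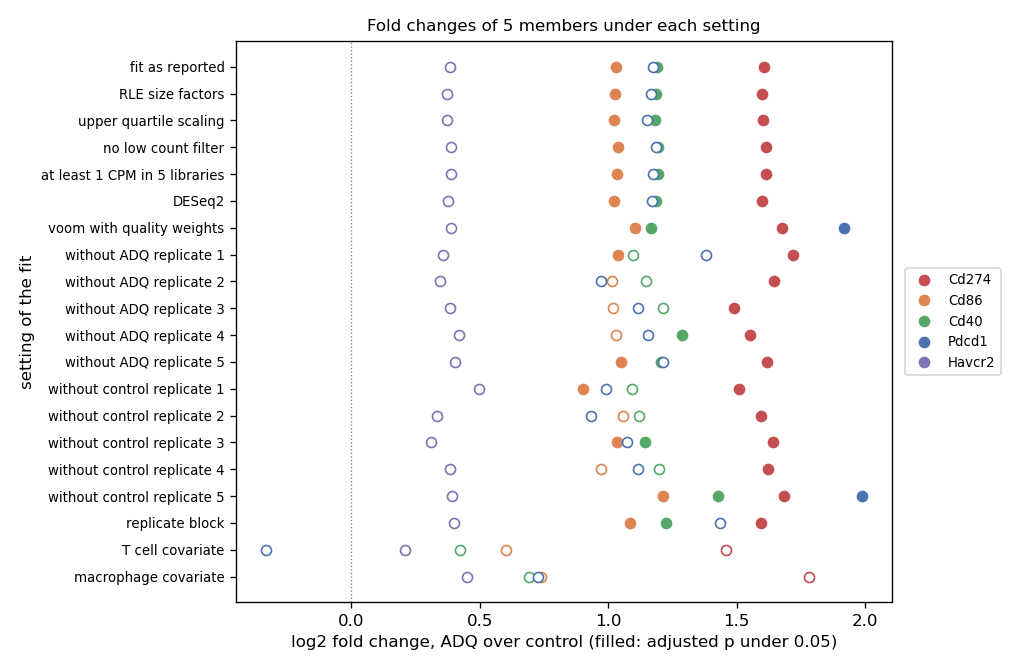
Log2 fold change of 5 genes under the fit as reported and each alternative setting, filled where the adjusted p was under 0.05. Cd274 stays between 1.46 and 1.78 and is filled in every setting except both marker covariates; Cd86 and Cd40 lose the call in several, and Pdcd1 lies at -0.33 with the T cell covariate.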

How the data were processed

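Gene counts were analysed from 5 ADQ and 5 control RPE/choroid libraries, grouped by sample title. The deposited table holds raw counts per Ensembl gene; its 287 repeated entries, with identical counts, were removed. The authors' second deposited table holds log2 CPM values, log2 fold changes and p-values per gene, and the authors' t and log-odds scores, which were not used. Per the submitters' processing notes, bcl2fastq, DRAGEN, edgeR, limma and the build GRCm38 were used, with no roles given. Per the labels' protocols, cDNA was amplified by SMARTer. Nothing says that samples were separate animals, so p-values measure the spread between samples, which may be technical. No library was a duplicate of another (smallest chi-square per degree of freedom over pairs 33.9, genes with at least 500 counts).

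Genes kept by filterByExpr (minimum count 10, minimum total 15) were TMM-scaled and tested with a robust edgeR 4.0.16 quasi-likelihood fit with group as its term, with Benjamini-Hochberg adjustment at 0.05 over all genes; limma 3.58.1 and DESeq2 1.42.0 served as alternatives in R 4.3.3. Each SE was derived from the F statistic and the log2 fold change. CPM values use the same scaling, with prior count 2 on the log2 scale. The gene fit was tested on simulated data. Partner and marker genes were listed by function; named partners are those that passed and, per axis, up to 2 others with the smallest p; 1 gene is not reported here. The genes and lists were chosen with earlier results of these data known. Limits for a count of 0 (3 counts) cover counting error only. Positions and lengths come from GENCODE M21, which holds 99.5% of the identifiers, and promoter sequences from RefSeq (GRCm38.p6).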

Additional observations from a re-analysis of the deposited data

Results flagged for a closer look

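Of 86 groups of 5 libraries examined (the 10 genes, the named partners and the marker lists), 10 held a library far from the rest; chance gives about 1 in 20. Control 5 was high in 6 of them: Pdcd1 at 1.41 CPM (other controls 0.138 to 0.431), Ctla4 at 0.581 CPM (others 0 to 0.151), Cd96 at 1.64 CPM (others 0.0394 to 0.458), the summed T cell markers at 80.0 CPM (others 25.0 to 37.2), the summed NK cell markers at 34.4 CPM (others 5.09 to 10.7) and the leukocyte gene Ptprc at 24.5 CPM (others 14.7 to 17.0). Control 3 was high in Ceacam1, at 83.5 CPM (others 18.3 to 31.7), and control 1 in the summed rod markers, at 1613 CPM (others 286 to 385). ADQ 1 was high in Tnfrsf9, at 1.28 CPM (others 0.79 to 0.876), and in the summed mast cell markers, at 74.3 CPM (others 20.3 to 32.4).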

How the results depend on the processing

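Scaling by RLE or upper quartile, no low-count filter and a stricter filter left the same 3 genes of the set called, Cd274, Cd86 and Cd40, as did DESeq2; limma voom with quality weights called 4, adding Pdcd1. Leaving out single libraries gave 1 to 4 calls in the set (1, Cd274, without ADQ 2, ADQ 3, control 2 or control 4; 4 without control 5), 3 to 11 among the partner genes and 78 to 357 over all genes (81, 99 and 87 without ADQ 2, ADQ 3 and ADQ 4, 96, 78 and 357 without control 1, control 4 and control 5), and 4 to 5 differing neighbours in the order of levels (3 with a prior count of 0.5, 5 with the longest transcript as length). Over all genes DESeq2 called 755 (510 higher) and voom 728 (552 higher), against 171 (153 higher) with edgeR; among the partner genes they called 10 and 13, against 4. With the T cell or the macrophage covariate edgeR called 0 of the set, 0 partner genes and 0 of all genes; unadjusted p was under 0.05 for 1 and 3 of the set, 13 and 9 partner genes, and 2602 and 2042 of all genes. Whether the same number in both groups pairs the samples is not known. Deviations of same-numbered libraries correlated between -0.113 and 0.266, and low correlations cannot exclude a pairing. With the replicate number as a block the set kept its 3 calls, while partner calls became 7 and calls over all genes 694 (392 higher). Below 0 instead of above were Lag3 with voom (-0.014), without control 2 (-0.022), with the T cell covariate (-0.13) and with the macrophage covariate (-0.14), Cd80 without ADQ 2 (-0.14), without control 4 (-0.077) and with the macrophage covariate (-0.070), and, with the T cell covariate, Pdcd1 (-0.33) and Icos (-0.50); without single libraries Lag3 lay between -0.022 and 0.19 and Cd80 between -0.14 and 0.24. None of these passed, and the cause was not tested. Depth limits Pdcd1lg2, Ctla4 and Tigit, with at most 28 counts in a library.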
